A study of Nicotiana tabacum with 6 samples.

Results

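Described here are 4 nuclear genes for proteins that work inside the chloroplast of tobacco (Nicotiana tabacum): the plastid ribosomal protein genes CL24 (ncbi_107762137), CL4 (ncbi_107817573) and CL17 (ncbi_107821645), and the sigma factor gene sigA1 (ncbi_107795931). They were taken by gene number, 4 of the 68476 loci in the deposited table, and were picked because earlier results of these same libraries had them lower in one group than in the other. Their group difference is therefore a description without a test. Each of the 6 RNA-seq libraries was made from poly(A) RNA of mature leaf. WT (n = 3) is wild-type tobacco, and OE-NtispH (n = 3) is tobacco overexpressing NtispH, the gene for the last enzyme of the plastid MEP pathway of isoprenoid synthesis, with both kinds of plant grown alike. The promoter of the transgene, the age of the plants, the number of transgenic lines and whether libraries came from separate plants are not stated by the labels. Any p-value therefore measures the spread among the 6 libraries alone, and that spread may be technical. The study set out to ask about glandular trichomes and terpenoids.

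The chloroplast keeps a small genome of bacterial descent. Its own genes are read by a bacterial-type RNA polymerase, whose core is plastid-encoded and which needs a nuclear-encoded sigma factor to find promoters, and by a phage-type polymerase that is wholly nuclear-encoded. The messages are translated on bacterial-type ribosomes whose proteins come partly from plastid genes and partly from nuclear genes, the latter made in the cytosol and imported. In leaves this machinery makes the plastid-encoded subunits of the photosystems, the ATP synthase and Rubisco.

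Values are FPKM, fragments scaled by transcript length and by the mapped fragments of the library, so levels can be set side by side between genes. Summed FPKM lay between 747832 and 770304 per library. Read counts are unknown. From the steps between low values, depth relative to WT replicate 1 was estimated at 1.02 to 1.17. The overexpressed gene did not check the labels: ISPH (LOC107760258) stood at 108.2, 3038 and 558.6 FPKM in WT replicates 1 to 3 and at 2761, 684.6 and 853.7 in OE-NtispH replicates 1 to 3, so every direction below is between libraries as labelled. Leaf identity was clear from Lhcb4, Lhcb5, Lhcb6, Rca, GAPA, GAPB and atpC, while 6 of 7 root alkaloid genes were at 0 in every library, QPT2A being the exception. With 3 libraries against 3, limma on log2(FPKM + 1) called 737 of 40725 tested loci at an adjusted p under 0.05, which is 1.81%, with 506 higher (1.24%) and 231 lower (0.567%) in OE-NtispH. Median-of-ratios scaling gave 136 higher and 194 lower; under quantile normalization 235 loci were higher and 360 lower. No locus was called without WT replicate 1 or without OE-NtispH replicate 1, while without OE-NtispH replicate 3 the count was 3103 and without OE-NtispH replicate 2 it was 1355. The counts without WT replicates 2 and 3 were 1 and 17. In whole leaves, fewer cells of a type and less RNA per cell cannot be told apart.

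CL4, a large-subunit protein whose bacterial counterpart lines the tunnel through which the new chain leaves the ribosome, stood at 104.5, 103.6 and 107.0 FPKM in WT replicates 1 to 3. In the OE-NtispH libraries it was at 57.4, 91.4 and 61.7. The OE-NtispH values all lay below the WT values, but replicate 2 was far closer to WT than the others were. The means were 105.0 ± 1.79 and 70.2 ± 18.5 (SD, n = 3), or 66.8% of the WT mean, a log2 change of -0.61 ± 0.18 (SE).

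CL24, whose bacterial counterpart starts the assembly of the large subunit, was at 102.7, 97.7 and 100.8 FPKM in WT and at 68.9, 81.4 and 64.8 in OE-NtispH. The groups again did not overlap, and replicate 2 was again the highest of the OE-NtispH libraries. The means of 100.4 ± 2.52 and 71.7 ± 8.61 (SD, n = 3) gave a log2 change of -0.49 ± 0.13 (SE). CL17, another protein of the large subunit, was at 61.0, 66.4 and 65.8 FPKM in WT and at 38.9, 57.2 and 39.3 in OE-NtispH. Its groups were separated by a narrower gap, 57.2 against 61.0. Its means were 64.4 ± 2.97 and 45.1 ± 10.4 (SD, n = 3), with a log2 change of -0.53 ± 0.16 (SE).

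sigA1, a sigma factor of the plastid-encoded polymerase, was the least abundant of the 4 genes and the furthest below WT. It stood at 31.6, 30.9 and 33.1 FPKM in WT and at 13.9, 17.6 and 22.3 in OE-NtispH. Here replicate 1 was the lowest and replicate 3 the nearest to WT, an order unlike that of the 3 ribosomal protein genes. The means were 31.9 ± 1.10 and 18.0 ± 4.21 (SD, n = 3), or 56.4% of WT, with a log2 change of -0.82 ± 0.16 (SE).

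**Figure D1:**
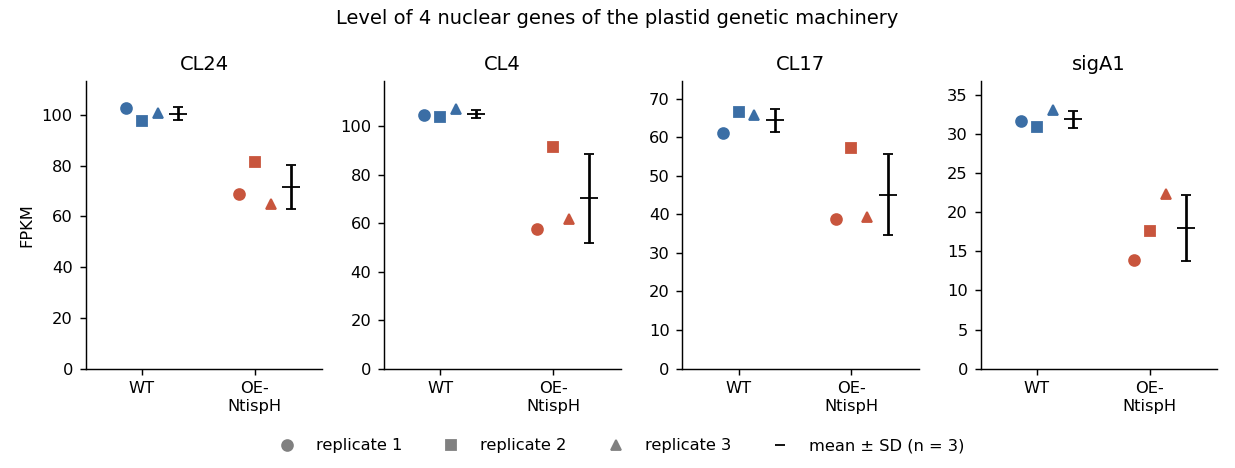
FPKM of CL24, CL4, CL17 and sigA1 in each library (linear axis from 0), with WT in blue and OE-NtispH in red, one symbol per replicate number, and the mean ± SD of 3 libraries beside the points. All WT values lie above all OE-NtispH values, and the WT points lie closer together; replicate 2 is the highest OE-NtispH library for the 3 ribosomal protein genes but not for sigA1.

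Of the 4 genes 1, sigA1, was past the threshold (limma, adjusted p = 0.0498), where 0.567% of all tested loci were called lower. All 4 had every OE-NtispH library below every WT library, as had 8.59% of all tested loci. Nothing is read from these counts, since the genes were picked for this difference. Single libraries set which of them passed: without OE-NtispH replicate 2, CL24, CL4 and CL17 did and sigA1 did not, with log2 changes of -0.58, -0.81, -0.71 and -0.82. That fit called 1355 of 40725 loci. sigA1 stood at -0.98 without OE-NtispH replicate 3, and at -0.66, no longer past the threshold, without OE-NtispH replicate 1. It did not pass without any single WT library either. The sign was negative for all 4 genes in each of 13 alternative fits, which are named with the processing. For separated groups, leaving out a library cannot change the sign. A filter or a replicate term leaves the log2 change as it is. The constant sign is therefore no further support.

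The WT libraries were close to each other at these loci. The coefficient of variation in WT was 1.71% for CL4, 2.51% for CL24, 3.45% for sigA1 and 4.61% for CL17, against a median of 14.8% over all tested loci. In OE-NtispH it was 26.3% for CL4, 12.01% for CL24, 23.4% for sigA1 and 23.2% for CL17, against a median of 17.7%. Both medians cover loci down to a mean of 0.5 FPKM, whereas the means of the 4 genes exceeded those of 89.8% to 97.7% of tested loci. A small spread in WT was not particular to them. The 4 other CL genes ranged from 3.50% (CL10) to 8.73% (CL27). EF-Tu was at 2.58%, sigA2 at 2.18%, MFP1-1 at 4.83% and cnd41 at 18.4%. The genes were picked for separated groups, so this spread too is given without a test.

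The targeted transcript differed far more between the WT libraries than these genes did. WT replicate 2, with the highest ISPH of all libraries, had sigA1 at 30.9 and CL4 at 103.6 FPKM, next to 31.6 and 104.5 in WT replicate 1, which had the lowest ISPH. Over the 3 WT libraries CL17 had the same order as ISPH and CL24 the opposite order. Among the OE-NtispH libraries, replicate 1 had the most ISPH and the lowest sigA1, CL4 and CL17, while CL24 was lowest in replicate 3.

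The ratios between members showed how far they kept step. CL17 stood at 0.584, 0.641 and 0.615 times the FPKM of CL4 in WT and at 0.677, 0.626 and 0.636 times in OE-NtispH, overlapping ranges. CL24 over CL4 was between 0.941 and 0.983 in WT and was 1.20, 0.891 and 1.05 in OE-NtispH. For sigA1 over CL4 the WT values were 0.302, 0.298 and 0.309, while OE-NtispH gave 0.242, 0.193 and 0.361, on both sides of the WT values. The sigma factor and the ribosomal protein genes were thus all lower in OE-NtispH, but not in a fixed proportion from library to library.

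The gene table names 7 nuclear genes for plastid ribosomal proteins by a CL symbol, all of the large subunit and all tested. The other 4 are CL12, the stalk protein that is present in several copies per ribosome, CL10, which anchors it, CL27, whose bacterial counterpart reaches the peptidyl transferase centre, and CL28. In WT, CL12 was the most abundant at 214.8 ± 13.1 FPKM (SD, n = 3). CL28 (105.4 ± 6.12), CL4, CL24 and CL27 (98.7 ± 8.62) followed. The values of CL28 overlapped those of CL4, and the values of CL27 overlapped those of CL24, whereas CL4 lay above CL24 in each WT library. Next came CL10 at 79.1 ± 2.77, and CL17 was the lowest at 64.4.

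All 7 had a log2 change below 0, with a median of -0.47, which includes the 3 genes picked for being lower. The 4 others were all below 0 with a median of -0.43, beside a median of 0.13 and 33.7% below 0 over all tested loci. Without OE-NtispH replicate 3 the median of the 4 was -0.29, against -0.60 without OE-NtispH replicate 2. The median of all loci lay near 0 (0.01 and 0.02) with median-of-ratios scaling and quantile normalization. None of these 4 genes passed limma with all libraries (lowest adjusted p = 0.154). CL12 passed without OE-NtispH replicate 2 (limma, adjusted p = 0.041, log2 change of -0.71), as did 1355 of 40725 loci. In the fit of all libraries 3 of the 4 had an unadjusted p under 0.05, as had 10747 of the 40725 tested loci. CL28 was at 98.53, 110.3 and 107.3 FPKM in WT and at 75.5, 98.49 and 64.4 in OE-NtispH, its groups touching at the edge. CL12 was at 205.4, 229.8 and 209.3 in WT and at 141.5, 214.7 and 121.4 in OE-NtispH, its replicate 2 lying inside the WT range. CL27 and CL10 had log2 changes of -0.43 ± 0.18 and -0.24 ± 0.13 (SE), and their groups overlapped as well.

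OE-NtispH replicate 2 was the highest of its group for 7 of 7 CL genes, at 81.0% (CL24) to 99.9% (CL12) of the WT mean. Replicates 1 and 3 lay at 54.7% to 75.5% and 56.5% to 80.9%. The summed FPKM of the 7 genes was 742.5, 791.5 and 769.5 in WT and 510.7, 715.7 and 475.6 in OE-NtispH. Without the 3 chosen genes the sum was 474.4, 523.8 and 495.9 in WT and 345.5, 485.8 and 309.7 in OE-NtispH, so replicate 2 then lay within the WT range. EF-Tu (TUFA, LOC107800308), the elongation factor that brings aminoacyl-tRNA to the plastid ribosome and the only named plastid translation factor, was likewise highest in replicate 2 within OE-NtispH. It was lowest in replicate 1, as were 3 of the 7 CL genes, the other 4 being lowest in replicate 3. It was at 70.6, 70.8 and 67.6 FPKM in WT and at 49.0, 62.2 and 51.0 in OE-NtispH, with a log2 change of -0.37 ± 0.13 (SE), short of the threshold (limma, adjusted p = 0.121).

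**Figure D2:**
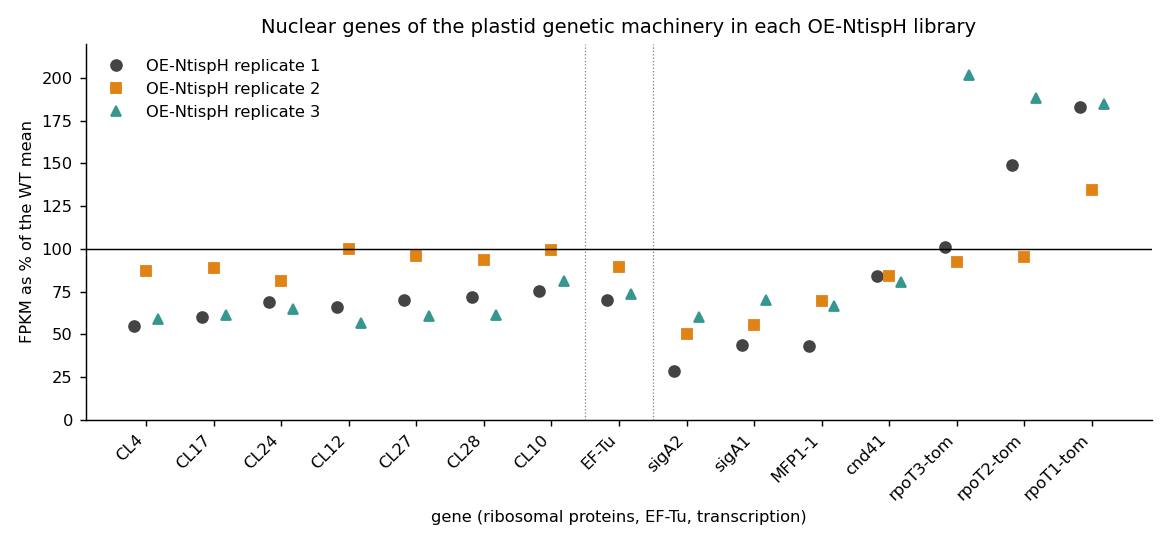
FPKM in each OE-NtispH library as a percentage of the WT mean (line at 100%) for the 15 named nuclear genes, ordered within plastid ribosomal proteins, EF-Tu and transcription genes by their log2 change. Replicate 2 (squares) is the highest OE-NtispH library for each CL gene and EF-Tu; replicate 1 (circles) is the lowest for sigA1, sigA2 and MFP1-1.

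The named nuclear genes of organelle transcription differed in the sign of their values. sigA2 (LOC107790547), the other named sigma factor gene of tobacco, was further below WT than sigA1. It was at 52.7, 51.1 and 50.5 FPKM in WT and at 14.7, 25.6 and 30.8 in OE-NtispH, with no overlap, and its log2 change of -1.15 ± 0.24 (SE) missed the threshold (limma, adjusted p = 0.0548). With all libraries and a minimum mean of 2 FPKM sigA2 passed (limma, adjusted p = 0.0473), in a fit that called 1375 of 29867 loci. It also passed without OE-NtispH replicate 3 (limma, adjusted p = 0.0129, log2 change of -1.36), in a fit that called 3103 of 40725 loci. Without OE-NtispH replicate 1 sigA2 had -0.85 (limma, adjusted p = 0.0929), where no locus was called. Fragments shared between 2 similar sigma factor genes can be assigned to either, and the rule used by the authors is not given in the sources used here.

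Both sigma factor genes had replicate 1 lowest and replicate 3 highest within OE-NtispH. Summed over sigA1 and sigA2 the level was 84.2, 82.0 and 83.6 FPKM in WT and 28.6, 43.3 and 53.1 in OE-NtispH. sigA1 made up 37.5%, 37.7% and 39.6% of that sum in WT and 48.7%, 40.8% and 42.0% in OE-NtispH. The share of sigA1 was higher in each OE-NtispH library, a value not tested because sigA1 was picked from the same contrast.

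MFP1-1 (LOC107792739), a thylakoid protein that binds plastid DNA, was at 10.6, 11.3 and 10.3 FPKM in WT and at 4.61, 7.48 and 7.12 in OE-NtispH. Its groups did not overlap, and its log2 change of -0.69 ± 0.17 (SE) missed the threshold (limma, adjusted p = 0.0658). Without OE-NtispH replicate 3 it passed (limma, adjusted p = 0.0455), as did 3103 of 40725 loci. The gene cnd41 (LOC107761657), for a nucleoid protease with DNA-binding activity, was at 69.0, 83.6 and 99.9 FPKM in WT and at 70.5, 70.6 and 67.9 in OE-NtispH, overlapping and spread mostly within WT.

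The 3 phage-type RNA polymerase genes had log2 changes above 0, as had 27001 of 40725 tested loci, and none was past the threshold. rpoT3-tom (LOC107783504), for the plastid enzyme, was at 8.20, 5.03 and 5.72 FPKM in WT and at 6.37, 5.82 and 12.7 in OE-NtispH. Its log2 change of 0.30 ± 0.29 (SE) rested on the high value of replicate 3 and was -0.02 without that library (limma, adjusted p = 0.542 with all libraries). rpoT1-tom (LOC107784816), for the mitochondrial enzyme, and rpoT2-tom (LOC107765810), whose product goes to both organelles, were low, at 1.26 and 1.53 FPKM in WT and 2.11 and 2.20 in OE-NtispH (limma, adjusted p of 0.128 and 0.325). In FPKM, sigA1 stood at 3.85, 6.15 and 5.78 times rpoT3-tom in WT and at 2.18, 3.03 and 1.75 times in OE-NtispH. Nothing is read from this ratio, since sigA1 was picked for being lower. Its lowest value came with the high rpoT3-tom of OE-NtispH replicate 3.

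Over the 7 transcription genes, 4 were below 0 and 3 above, with a median log2 change of -0.25 (0.13 over all tested loci). A stricter filter, at a mean of 2 FPKM, dropped rpoT1-tom and rpoT2-tom and gave a median of -0.69. Without single libraries the median lay between -0.39 and -0.12. Leaving out the 4 chosen genes, 8 of the remaining 11 nuclear genes of these lists were below 0 (33.7% of all tested loci). Of the 11, 0 passed limma in the main fit (1.81% of all tested loci), with 7 at unadjusted p under 0.05, as had 10747 of 40725.

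**Figure D3:**
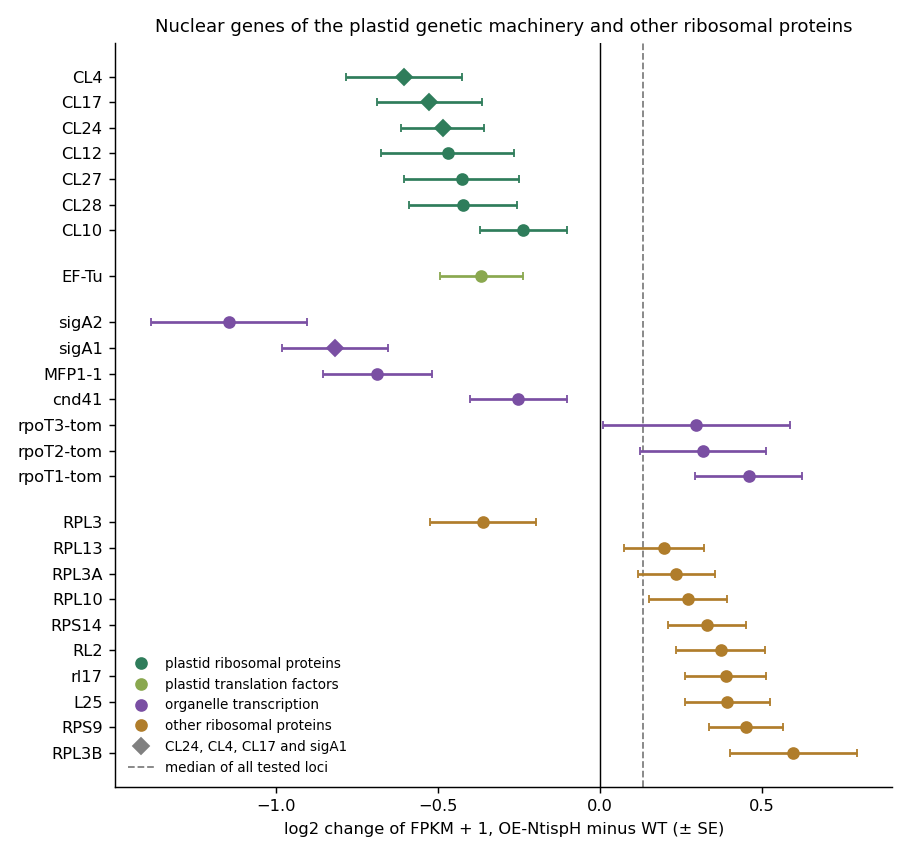
Log2 change of FPKM + 1 between OE-NtispH and WT with its standard error (limma, 3 libraries a group) for named nuclear genes in 4 lists; diamonds mark CL24, CL4, CL17 and sigA1, and the dashed line is the median of all tested loci (0.13). The CL genes, EF-Tu, both sigma factors, MFP1-1 and cnd41 lie below 0, the rpoT genes and 9 of the 10 other ribosomal protein genes above.

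Ribosomal protein genes without a plastid symbol served as the comparison. Above 0 were 9 of 10, as were 27001 of 40725 tested loci. The median log2 change of the list was 0.35, against 0.13 over all tested loci. With median-of-ratios scaling these medians were 0.20 and 0.01. In this list 8 genes had every OE-NtispH library above every WT library, as had 23.9% of all tested loci. None of the 10 passed limma with all libraries (1.81% of all tested loci). Of the 10, 6 had an unadjusted p under 0.05, as had 10747 of 40725 tested loci. RPL3B (LOC107768788), an example chosen after its values were seen, was at 11.3, 11.5 and 10.9 FPKM in WT and at 19.0, 22.6 and 12.4 in OE-NtispH (limma, adjusted p = 0.111). It passed without OE-NtispH replicate 3 (limma, adjusted p = 0.0114, log2 change of 0.83), as did 3103 of 40725 loci. The exception was RPL3 (LOC107801195), at 146.2, 135.1 and 153.7 FPKM in WT and at 103.9, 141.6 and 97.0 in OE-NtispH, with the highest OE-NtispH value in replicate 2 as for the CL genes. The gene table does not say in which compartment the RPL3 product works, nor does it for the other comparison genes, which were listed by symbol alone.

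The summed CL genes stood at 1.57, 1.81 and 1.74 times the summed comparison genes in WT and at 0.969, 1.33 and 1.02 times in OE-NtispH. Without RPL3, left out after its values were seen, the ratios were 2.27, 2.62 and 2.66 in WT and 1.21, 1.81 and 1.28 in OE-NtispH. These sums hold the 3 genes picked for being lower. With the 4 other CL genes alone the ratio to all 10 comparison genes was 1.002, 1.20 and 1.12 in WT and 0.655, 0.906 and 0.663 in OE-NtispH, again without overlap. A ratio within a library does not depend on its scaling, and it does not show which of the lists moved.

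Transcripts of the plastid genome's own genes are captured poorly from poly(A) RNA, and plastid sequences copied into the nuclear genome can add to them. Of 26 plastid-encoded entries for ribosomal proteins and the core polymerase, 14 reached the tested level. The 12 others included rpoB, rpoC1, rpoC2 and a further entry of rps12, which is also among the 14. Of the 14, 11 were above 0 and 3 below, where 27001 of 40725 tested loci were above 0. Their median log2 change was 0.15, close to that of all tested loci. The median was 0.052 with median-of-ratios scaling and 0.053 without OE-NtispH replicate 1, and without WT replicate 2 as many as 6 of the 14 were below 0. None passed limma (1.81% of all tested loci), with 3 of the 14 at unadjusted p under 0.05, as had 10747 of 40725 tested loci. rps7 was at 32.6, 31.7 and 35.3 FPKM in WT and 46.2, 39.4 and 42.3 in OE-NtispH (limma, adjusted p = 0.108), and rps2 was at 5.45, 4.04 and 4.09 against 7.65, 6.09 and 8.90 (limma, adjusted p = 0.0751). The polymerase subunit gene rpoA was at 2.16, 3.17 and 3.03 FPKM in WT and 3.18, 2.48 and 4.14 in OE-NtispH, overlapping. None of the 14 had every OE-NtispH library below every WT library (8.59% of all tested loci), and 3, rps2, rps4 and rps7, had every OE-NtispH library above (23.9%).

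**Figure D4:**
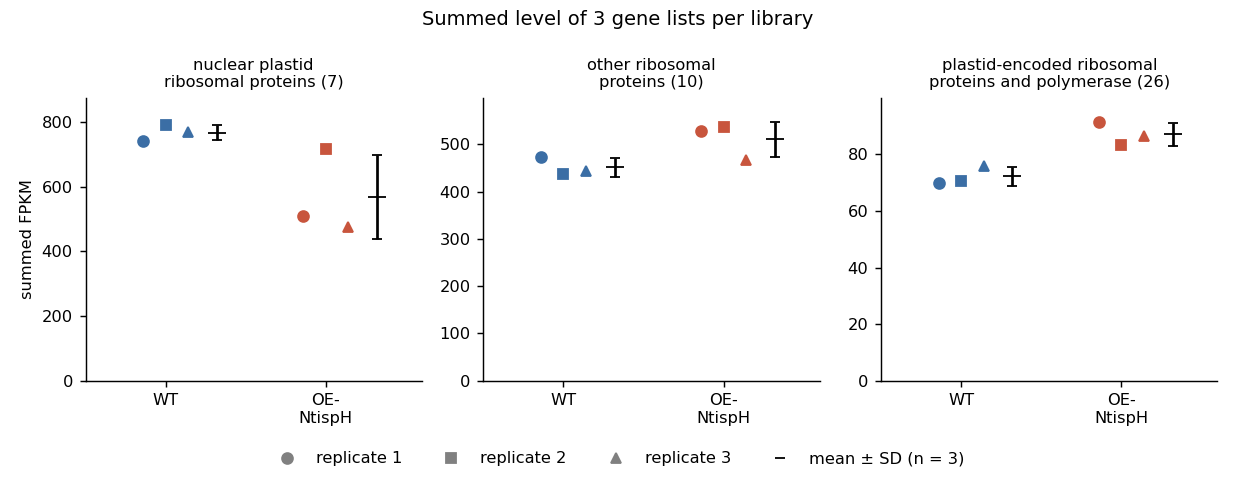
Summed FPKM per library (linear axes from 0) of the 7 nuclear CL genes, the 10 other ribosomal protein genes and the 26 plastid-encoded entries for ribosomal proteins and RNA polymerase. The mean ± SD of 3 libraries is beside the points. The first sum, which holds the 3 genes picked for being lower, is lower in each OE-NtispH library than in any WT library; without them replicate 2 reaches the WT range. The third is higher in FPKM as deposited, at 83.3 to 91.5 against 69.97 to 75.9. It rests largely on 1 gene, rps7, with a mean of 33.2 of 72.2 FPKM in WT and 42.6 of 87.1 in OE-NtispH. Of the 26 entries, 12 were below the tested level.

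Plastid-encoded photosynthesis genes, a list added after values had been seen, showed no common direction. Of 44 genes 29 were tested, with 16 above 0, 13 below and a median of 0.03 on the log2 scale. None passed limma (1.81% of all tested loci), with 1 of the 29 at unadjusted p under 0.05, as had 10747 of 40725 tested loci. psbA, for the D1 protein of photosystem II, was at 65.7, 151.5 and 83.7 FPKM in WT and 213.6, 74.6 and 120.9 in OE-NtispH. rbcL, for the large subunit of Rubisco, was at 44.5, 74.0 and 54.95 against 73.8, 40.8 and 60.04. Both are transcribed by the sigma-dependent polymerase, and their groups overlapped widely. Of the 29, 2 had every OE-NtispH library below every WT library (8.59% of all tested loci), psaA and psaB for the core of photosystem I, and 1 had every one above (23.9%), atpI of the ATP synthase. psaB had means of 22.8 ± 0.85 in WT and 19.8 ± 1.76 FPKM in OE-NtispH (SD, n = 3) and an adjusted p of 0.304 by limma.

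Nuclear markers of leaf photosynthesis were lower in the same libraries as the 4 genes. All 8 tested leaf markers were below 0 (33.7% of all tested loci), with a median log2 change of -0.65. This list was set with earlier results of these same libraries known, so its direction is a description and not separate support. Of the 8, 2 fell, Lhcb6 and GAPB (limma, adjusted p of 0.0486 and 0.0363), as did 0.567% of all tested loci. Their summed level was 12934 to 14848 FPKM in WT and 8068 to 10550 in OE-NtispH, replicate 2 being the highest of its group for 7 of the 8. The summed glandular trichome markers, NtABS, NtPDR1 and CYP71D20, were at 141.5 to 217.5 FPKM in WT and 127.2 to 252.5 in OE-NtispH, with none at 0. The sum hides different directions. Mean FPKM in WT and OE-NtispH was 123.1 and 180.8 for NtPDR1, 10.5 and 10.7 for NtABS, and 39.3 and 8.55 for CYP71D20. The groups of all 3 overlapped, and CYP71D20 ranged from 3.67 to 92.5 within WT. The 100 most abundant loci of each library held 30.6% to 32.2% of its FPKM in WT and 23.4% to 26.5% in OE-NtispH. The part of these shifts in the levels of the 4 genes was not tested.

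The 3 most similar profiles over the 6 libraries were taken for each gene from 698 other named loci whose mean reached 5 FPKM. The correlations include the difference between the groups, and the libraries are shared by all pairs. For CL4 they were DXDES, the lycopene epsilon-cyclase gene LYCe and CP22 (psbS, the photoprotective protein of photosystem II), with Pearson's r of 0.999, 0.991 and 0.991 on log2(FPKM + 1). For CL17 they were CP22, the magnesium chelatase subunit gene CHLI and the Rca locus LOC107819807, the last a second locus for Rubisco activase, with r of 0.998, 0.997 and 0.992. For CL24 they were LYCe, oee2-B (a protein of the oxygen-evolving complex) and the glutamine synthetase gene Gln1-5, with r of 0.983, 0.978 and 0.973.

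The genes most like sigA1 were different ones. They were the protochlorophyllide oxidoreductase gene POR2, sigA2 and the phospholipase C gene PLC3, with r of 0.992, 0.987 and 0.987. POR2 was at 266.7, 295.9 and 293.3 FPKM in WT and at 132.1, 158.1 and 197.1 in OE-NtispH, with the lowest value in replicate 1 and the highest OE-NtispH value in replicate 3, as for sigA1. Within the machinery itself, CL4 had r of 0.991 with CL17 and 0.987 with EF-Tu but 0.787 with sigA1, and sigA1 had 0.949 with MFP1-1 and -0.07 with rpoT3-tom.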

How the data were processed

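Per the labels' protocols, Trizol RNA was enriched for poly(A) tails with oligo(dT) beads and reverse-transcribed from random hexamers, and the text describes a strand-specific variant. The authors deposited FPKM per locus. HISAT2, Bowtie2, StringTie, RSEM and fastp are named, per the submitters' processing notes, without roles or versions. The genome build, annotation and treatment of fragments matching several loci are unknown here. Since tobacco is allotetraploid, near-identical copies can exchange fragments. FPKM values depend on the most abundant transcripts of a library.

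From the 68476 loci, those with a mean of at least 0.5 FPKM (40725) were compared as log2(FPKM + 1) with limma 3.58.1 in R 4.3.3 (trend, robust, two-sided, Benjamini-Hochberg over all loci at 0.05), with no term for the replicate number. The scale understates changes of low genes. The fit was tested on simulated data. Means ± SD are of FPKM, and standard errors are of the moderated fit. Figures and tables used Python 3.11.15, pandas 2.3.3, numpy 2.4.6 and matplotlib 3.10.9.

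Names came from a RefSeq gene table of ASM71507v2, used without coordinates: 49268 of 61780 gene numbers matched. Plastid-encoded genes listed again with the same values (3) were counted once. The gene rps12, listed again with other values, was kept at each entry. Gene lists were set by symbol, and the named genes were the members, ISPH, the tested genes of the nuclear lists, called genes of other lists and the 3 most similar profiles per member. Others are named as examples chosen after their values were seen. No gene matched the list of plastid RNA-binding proteins. The members and lists were chosen with earlier results of these data known. Alternatives were pseudocount 0.1, no filter, a minimum mean of 2 FPKM, median-of-ratios, TPM and quantile scaling, a replicate term and leaving out each library. Sequences of the genes are not used here.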

Additional observations from a re-analysis of the deposited data

How the results depend on the processing

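The 7 of 7 CL genes below 0 held in all 13 alternatives. So did the negative sign of CL24, CL4, CL17 and sigA1. A filter or a replicate term leaves every log2 change as it is. Leaving out a library could not change the sign of CL28 or of the 4 chosen genes, since their groups were separated. These constant signs were therefore largely fixed in advance. The log2 changes of the 4 chosen genes ranged from -0.64 to -0.42 for CL24, -0.81 to -0.48 for CL4, -0.71 to -0.43 for CL17 and -0.98 to -0.66 for sigA1. The median of the CL genes, -0.47, ranged from -0.63 to -0.30, and that of the 4 without the chosen genes, examined after seeing the data, from -0.60 to -0.29 with 4 of 4 below 0. CL24 moved by more than the spread between replicates with median-of-ratios scaling, to -0.64. The adjusted p of sigA1 was under 0.05 in 5 of 14 fits, the main one included at 0.0498 (limma). The fits share the same libraries and sigA1 was picked on this contrast, so the count is a description and not a test. The count of called loci, 737, was 38 without a filter, 1375 with a mean of at least 2 FPKM, 330 with median-of-ratios scaling and 68 with a replicate block; leaving out single libraries gave 0 to 3103. Where no locus was called by limma, 10207 (WT replicate 1 left out) or 7221 (OE-NtispH replicate 1 left out) had an unadjusted p under 0.05. The median of the transcription list, -0.25, was -0.69 with a mean of at least 2 FPKM, -0.41 with median-of-ratios scaling and -0.36 with quantile normalization, and -0.39 to -0.12 without single libraries. The median of the other ribosomal protein genes, 0.35, was 0.20 with median-of-ratios scaling and 0.21 with quantile normalization. For the plastid-encoded machinery, 3 of 14 genes were below 0 with a median of 0.15; without a filter 6 of 24 were below 0, pseudocount 0.1 moved the median to 0.26 and median-of-ratios scaling to 0.052. With that scaling and with quantile normalization 5 of 14 were below 0, and without single libraries 3 to 6 were, with medians of 0.053 to 0.25. EF-Tu, at -0.37, was at -0.52 with median-of-ratios scaling. The cause was not tested, except that the higher filter removes low genes. Same-numbered libraries did not deviate together (correlations of -0.13, 0.04 and -0.16), so the replicate numbers were not taken as pairs. The planned search for close copies of the 4 genes and for promoter motifs was not run. Without read counts no counting interval can be given.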
